A study of Mus musculus with 6 samples.

Results

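The interleukin-1 (IL-1), tumor necrosis factor (TNF) and NF-kB feedback genes are 10 genes chosen by name: Il1a, Il1b, Il1rn, Il18, Tnf, Tnfaip3, Nfkbia, Nfkbiz, Casp1 and Nlrp3. Each was found by its symbol among the 24341 genes with deposited expression values. The rule uses gene names and no measured value, although the list was drawn up with earlier results of these data known. All 10 had a mean of at least 0.5 FPKM and were among the 10800 genes tested. Their RNA was measured in alveolar macrophages (AMs), the macrophages of the lung airspaces, collected by bronchoalveolar lavage (BAL) from naive female C57BL/6 mice aged 6 to 10 weeks. The groups were CD44+/+ AMs and CD44-/- AMs, with 3 RNAseq libraries each, and the CD44-/- mice lacked CD44, a cell surface receptor for hyaluronan. Each library came from BAL cells pooled from a few mice, in pools of unequal size, and treated with red blood cell lysis buffer without sorting, so the spread between libraries is a spread between pools. Nothing was given to the mice to provoke inflammation, and the values below are therefore levels in resting lungs.

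IL-1 alpha, IL-1 beta and TNF are the early cytokines that macrophages release on infection or injury. They act through receptors that free the transcription factor NF-kB from its inhibitor IkB alpha, and NF-kB in turn switches on the cytokine genes as well as the inhibitors that end the response, among them IkB alpha (Nfkbia) and the ubiquitin-editing enzyme A20 (Tnfaip3). IL-1 beta and IL-18 are made as inactive precursors that caspase-1 cuts in the inflammasome, which the sensor NLRP3 can assemble, while the IL-1 receptor antagonist (Il1rn) occupies the IL-1 receptor without signaling. Resting AMs are known for holding these responses in check in an organ that meets inhaled particles and microbes all the time.

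None of the 10 genes differed between CD44-/- and CD44+/+ AMs by the test used. With limma on log2(FPKM + 0.1), 0 of 10 had an adjusted p under 0.05, where 0.111% of all genes tested did. At an unadjusted p under 0.05, 1 of 10 passed, against 7.69% of all genes and 2.94% with a lower level in CD44-/- AMs. That gene was Tnf, with a log2 fold change of -0.80 ± 0.33 (SE) for CD44-/- over CD44+/+ AMs. The values of the genotypes overlapped for all 10 genes. Of all genes 11.6% had no overlap, a share too small to set the 10 genes apart. The mean was lower in CD44-/- AMs for 8 of 10 genes and for 44.2% of all genes, and the median log2 fold change was -0.12 for the 10 genes and 0.01 for all genes. Tnf, Il1b, Nfkbia and Tnfaip3 varied more between the CD44+/+ libraries than between the CD44-/- libraries. Il1a varied nearly alike in both, with an SD of log2(FPKM + 0.1) of 0.36 and 0.32. For all 5 of these genes CD44+/+ replicate 1 was the lowest of its genotype. With replicate numbers kept as a block in the fit, the counts were again 0 and 1 of the 10 genes, against 0.0833% and 9.71% of all genes.

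The deleted gene bore out the genotype labels. Cd44 lay at 540, 535 and 527 FPKM in CD44+/+ AMs and at 54.7, 54.5 and 51.4 FPKM in CD44-/- AMs, and the log2 fold change was -3.32 (adjusted p 4.19e-09). Of the markers of AMs, 14 of 15 listed genes were tested, and their summed level was 16900 to 19300 FPKM in CD44+/+ and 16000 to 20200 FPKM in CD44-/- AMs. Chil3, a chitinase-like protein of AMs, made up most of this sum. Markers of T, B and NK cells summed to between 1.02 and 2.74 FPKM in any library. Neutrophil RNA was present, since the 13 neutrophil markers summed to between 91.4 and 190 FPKM. Of these markers 7 reached the level for testing, while Camp, Ngp, Elane and Mpo, named after their values were seen, were listed at 0 in all libraries. In bulk RNA such as this, fewer cells that express a gene and less RNA of it per cell cannot be told apart.

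Among themselves the 10 genes spanned a wide range of levels on the FPKM scale, which corrects for transcript length. Il18 was the most abundant with a mean of 343 FPKM over the 6 libraries, a level above that of 98.1% of genes tested. It was followed by Il1rn with 128 FPKM. Casp1 (56.6 FPKM) and Nfkbia (54.9 FPKM) came next and did not differ from each other beyond their spread. Below them lay Il1b (22.6 FPKM), Il1a (18.5 FPKM), Nlrp3 (18.5 FPKM) and Tnfaip3 (16.0 FPKM), whose ranges overlapped one another. Tnf had a mean of 6.19 FPKM, which was above 31.5% of genes tested, and Nfkbiz was the lowest with 1.04 FPKM, above 6.03%. Resting AMs therefore held more RNA of the receptor antagonist Il1rn than of Il1a or Il1b in every library, and more of the inhibitor Nfkbia than of Tnf.

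**Figure D1:**
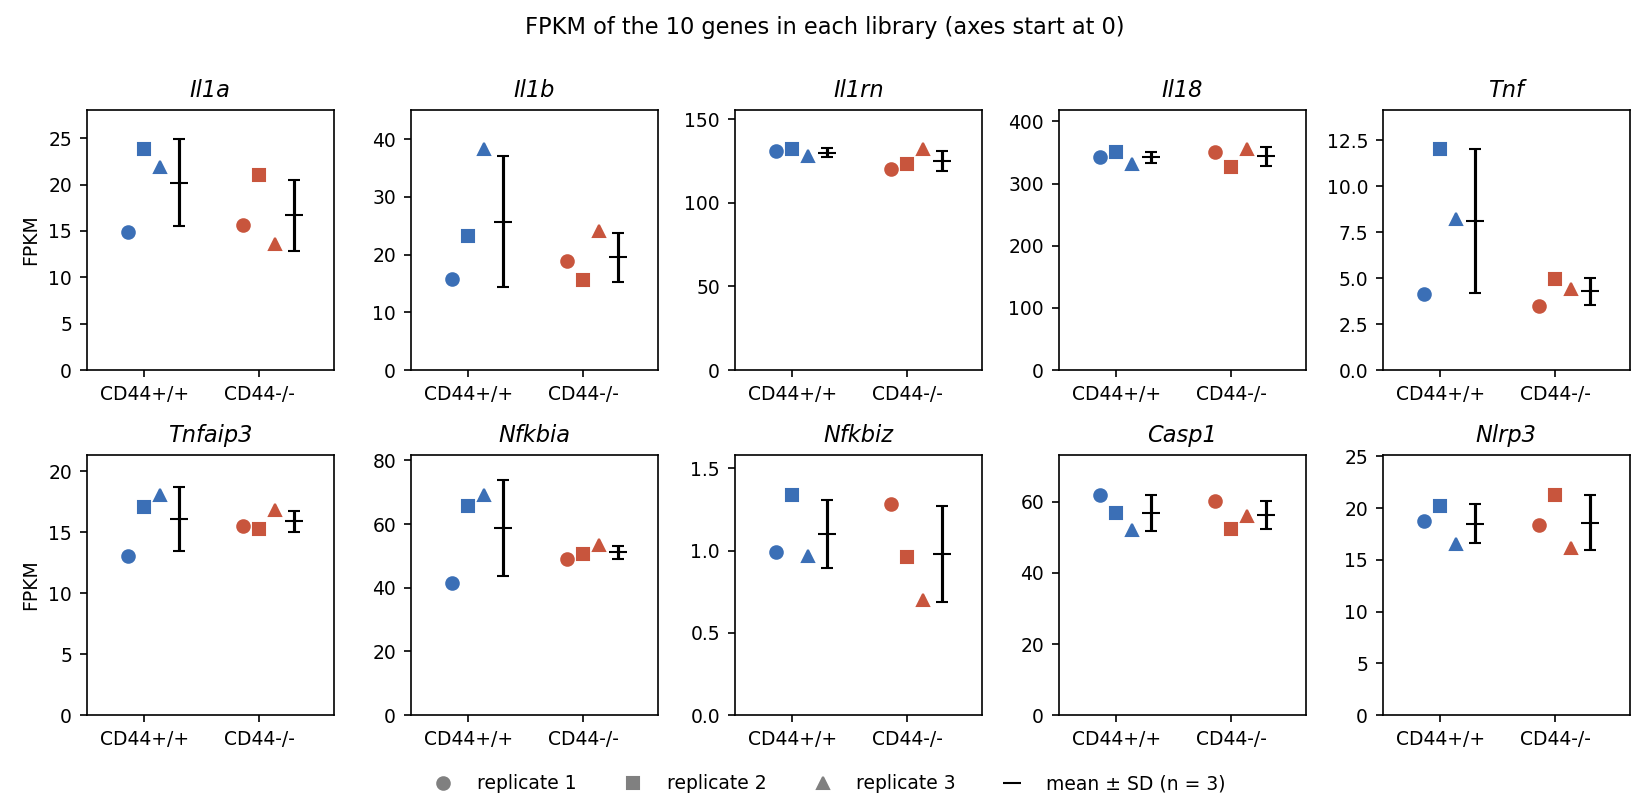
FPKM of each of the 10 genes (vertical axes, starting at 0) in the 3 CD44+/+ and 3 CD44-/- libraries, with symbols for replicate numbers and bars for the mean ± SD (n = 3). The genotypes overlap in every panel, and Tnf runs from 4.16 to 12.0 FPKM in CD44+/+ and from 3.48 to 4.93 FPKM in CD44-/- AMs.

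The sequences just before the start sites are shown for the 5 members with a TATA box close to the start or with 2 matches to a kB site before the same start, and were chosen after the search. They stand for these genes and not for cytokine or inhibitor genes as groups. Positions are counted back from the annotated start, so that -1 is the base before it, and sequences are given 5′ to 3′ on the strand of the gene from RefSeq (GRCm38.p6). A TATA box was searched as TATAAA on the sense strand in the 250 bases before each start. It was found at -29 to -24 for Tnf, at -31 to -26 for Il1b and at -32 to -27 for Il1a, the distance at which a TATA box is usually found, and 7.59% of 32851 promoter windows held it anywhere. Tnfaip3 held the letters farther away, at -225 to -220, and the windows of Il18, Il1rn, Casp1, Nlrp3 and Nfkbia did not hold them. Capitals mark it in Tnf (chr17:35202008-35202067, minus strand), Il1b (chr2:129371140-129371199, minus strand) and Il1a (chr2:129309973-129310032, minus strand).
Tnf: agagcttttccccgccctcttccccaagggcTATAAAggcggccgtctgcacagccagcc
Il1b: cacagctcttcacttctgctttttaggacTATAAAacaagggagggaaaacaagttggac
Il1a: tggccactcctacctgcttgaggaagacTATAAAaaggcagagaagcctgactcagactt

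NF-kB binds kB sites, and GGANTTTCC and GGGNTTTCC were searched on both strands as forms of them. The first was found in 1.07% of all windows and the second in 1.46%. Nfkbia and Tnfaip3 each held 2 matches before the same start, shown in capitals for Nfkbia (chr12:55492648-55492847, minus strand) and Tnfaip3 (chr10:19015411-19015470, minus strand).
Nfkbia: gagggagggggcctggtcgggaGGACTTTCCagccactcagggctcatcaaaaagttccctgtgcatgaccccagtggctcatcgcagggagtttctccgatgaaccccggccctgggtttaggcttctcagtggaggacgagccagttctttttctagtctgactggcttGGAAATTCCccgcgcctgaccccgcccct
Tnfaip3: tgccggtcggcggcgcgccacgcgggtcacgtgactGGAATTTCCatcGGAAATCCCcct

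In Nfkbia, GGANTTTCC matched at -178 to -170 on the sense strand and at -29 to -21 on the antisense strand. In Tnfaip3, GGANTTTCC matched at -24 to -16 on the sense strand and GGGNTTTCC at -12 to -4 on the antisense strand. The matches did not overlap each other. Nlrp3 held a match to each form before a different start site, at -94 to -86 and at -122 to -114. These letters were not in the windows of Tnf, Il1a, Il1b, Il1rn, Il18 and Casp1. Matches describe letters, and binding was not measured.

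Tnf encodes TNF and lies at chr17:35199381-35202007 (GENCODE vM21, GRCm38, minus strand). It had 4.16, 12.0 and 8.20 FPKM in CD44+/+ replicates 1, 2 and 3, and 3.48, 4.93 and 4.42 FPKM in the CD44-/- replicates. The 3 CD44-/- libraries lay close together, and CD44+/+ replicate 1 lay among them while the other CD44+/+ libraries lay above all of them. Group levels were 8.11 ± 3.90 FPKM in CD44+/+ and 4.28 ± 0.736 FPKM in CD44-/- AMs (SD, n = 3). The 95% interval of the log2 fold change was -1.54 to -0.05, which corresponds to folds of 0.344 to 0.963, and the unadjusted p was 0.0383. This p was 0.0512 with median-ratio scaling, 0.0723 with eBayes without a trend, 0.11 with robust eBayes and 0.131 with no filter on low values, and it was 0.0691 to 0.128 when CD44+/+ replicate 2 or 3 or CD44-/- replicate 1 or 3 was left out. With the other alternatives it stayed under 0.05, as at 0.0449 with quantile normalization, 0.0441 without CD44-/- replicate 2 and 0.00423 with the replicate block. Adjusted over all genes the p was 0.616, and 0.258 with the replicate block. The exact permutation test of the difference gave a two-sided p of 0.3. Without CD44+/+ replicate 1 the log2 fold change was -1.21 with an adjusted p of 0.068, and leaving out any 1 library gave values from -1.21 to -0.46.

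Tnf RNA is short-lived in macrophages because its 3′ UTR holds AU-rich elements, the docking sites of the mRNA decay factor tristetraprolin (Zfp36). Searched as TTATTTATT in the longest annotated 3′ UTR of each gene (GENCODE vM21), the element occurred 5 times in the 764 bases of Tnf, once each in Tnfaip3 and Nfkbia, and not in the other members. Of 10104 genes searched, 8.21% held it at least once and 1.8% at least 2 times. The stretch of Tnf with the most overlapping copies is shown with the copies in capitals (chr17:35199681-35199710, minus strand).
Tnf element: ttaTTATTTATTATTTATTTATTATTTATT

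Il1b encodes IL-1 beta and lies at chr2:129364570-129371139 (minus strand). It had 15.8, 23.2 and 38.2 FPKM in CD44+/+ AMs and 18.8, 15.6 and 24.1 FPKM in CD44-/- AMs. CD44+/+ replicate 3 was the highest library and CD44+/+ replicate 1 was among the lowest, so the CD44+/+ values enclosed nearly all of the CD44-/- values. The means were 25.7 ± 11.4 and 19.5 ± 4.29 FPKM (SD, n = 3). The log2 fold change was -0.33 ± 0.29 (SE) with an interval of -0.98 to 0.32 and an adjusted p of 0.919. Its sign rested on CD44+/+ replicate 3, since without it the log2 fold change was 0.0034, and without CD44+/+ replicate 1 it was -0.63 with an adjusted p of 0.329.

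Il1a, the gene of IL-1 alpha, lies beside Il1b at chr2:129299610-129309972 (minus strand). It had 14.9, 23.8 and 21.9 FPKM in CD44+/+ AMs and 15.6, 21.0 and 13.6 FPKM in CD44-/- AMs. In both genotypes 1 library stood apart from the other 2, with CD44+/+ replicate 1 low and CD44-/- replicate 2 high, and the genotypes were not separated. For Il1a the log2 fold change was -0.27 ± 0.20 (SE) with an interval of -0.72 to 0.18 and an adjusted p of 0.872. Without CD44+/+ replicate 1 it was -0.47, with an adjusted p of 0.313.

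Il1rn (chr2:24336853-24351494, plus strand), the natural antagonist of both IL-1 cytokines, was steady across libraries. It had 131, 132 and 128 FPKM in CD44+/+ AMs and 120, 123 and 132 FPKM in CD44-/- AMs. Only CD44-/- replicate 3 reached into the CD44+/+ range. The log2 fold change was -0.06 ± 0.05 (SE) and its interval of -0.18 to 0.05 corresponds to folds of 0.883 to 1.04, so that a change of Il1rn beyond these folds lay outside the interval. Il1a, Il1b and Il1rn lie on chromosome 2 with Cd44, at distances of 26.4, 26.5 and 78.5 Mb. Of the tested genes on that chromosome 9.28% had an unadjusted p under 0.05, as did 7.56% of those on other chromosomes, and none of the 3 IL-1 genes did.

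Il18 (chr9:50554827-50581840, plus strand), whose protein acts on lymphocytes to raise interferon gamma, had 343, 351 and 332 FPKM in CD44+/+ AMs and 351, 327 and 355 FPKM in CD44-/- AMs. The genotypes covered the same range, and the interval of the fold was 0.928 to 1.09. Casp1 (chr9:5298517-5307265, plus strand), the gene of caspase-1, had 62.0, 56.8 and 51.9 FPKM in CD44+/+ AMs and 60.2, 52.3 and 56.1 FPKM in CD44-/- AMs. Nlrp3 (chr11:59541568-59566956, plus strand) had 18.7, 20.2 and 16.5 FPKM against 18.4, 21.3 and 16.1 FPKM. The fold intervals were 0.874 to 1.12 for Casp1 and 0.842 to 1.20 for Nlrp3, with adjusted p of 0.989 and 0.998. The genotypes overlapped for both genes, and for Nlrp3 replicate 2 was the highest and replicate 3 the lowest of either genotype.

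Nfkbia encodes IkB alpha and lies at chr12:55489410-55492647 (minus strand). It had 41.5, 65.6 and 69.3 FPKM in CD44+/+ AMs and 49.2, 50.6 and 53.4 FPKM in CD44-/- AMs. All CD44-/- libraries fell between CD44+/+ replicate 1, the lowest of the 6, and the other CD44+/+ libraries. The means were 58.8 ± 15.1 and 51.1 ± 2.14 FPKM (SD, n = 3), and the log2 fold change was -0.17 ± 0.17 (SE) with an adjusted p of 0.935. Without CD44+/+ replicate 1 it was -0.40 with an adjusted p of 0.0485, the only alternative under which any of the 10 genes passed the adjusted threshold, where 0.333% of genes did.

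Tnfaip3 (chr10:19000910-19015657, minus strand) had 13.1, 17.1 and 18.1 FPKM in CD44+/+ AMs and 15.5, 15.3 and 16.8 FPKM in CD44-/- AMs. As for Nfkbia, CD44+/+ replicate 1 was the lowest of the 6 libraries and the CD44-/- libraries lay between it and the other CD44+/+ libraries. The log2 fold change was -0.01 ± 0.12 (SE), with a fold interval of 0.827 to 1.19. Nfkbiz (chr16:55811375-55838899, minus strand) encodes IkB zeta, a nuclear IkB protein that helps NF-kB to switch on a second wave of genes such as Il6. It had 0.994, 1.34 and 0.966 FPKM in CD44+/+ AMs and 1.28, 0.963 and 0.699 FPKM in CD44-/- AMs, with overlap and a fold interval of 0.604 to 1.30.

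**Figure D2:**
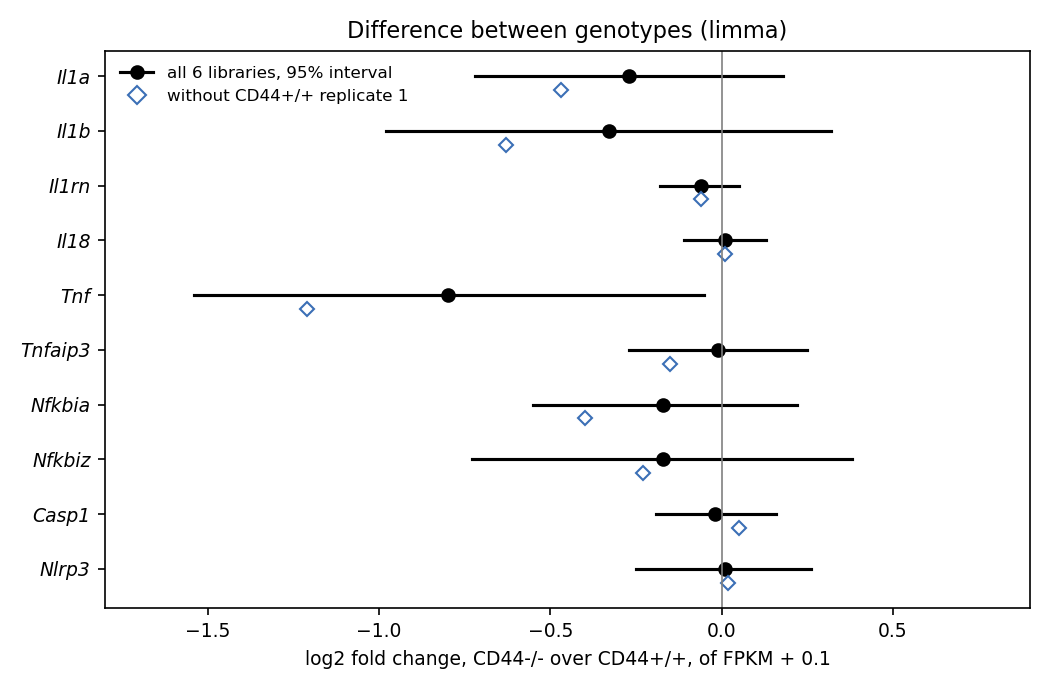
Log2 fold change (horizontal axis) of the 10 genes in CD44-/- over CD44+/+ AMs, with circles and lines for limma on all 6 libraries with its 95% interval and diamonds for the fit without CD44+/+ replicate 1. Only the interval of Tnf (-1.54 to -0.05) lies to the left of 0, and Il18 (-0.11 to 0.13) and Il1rn (-0.18 to 0.05) have narrow intervals.

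The spread between libraries of the same genotype differed widely among the 10 genes. It was measured as the SD of log2(FPKM + 0.1) over the 3 libraries and set beside genes with a mean within 2-fold of each member. In CD44+/+ AMs the SD was 0.76 for Tnf, 0.64 for Il1b, 0.41 for Nfkbia, 0.36 for Il1a and 0.25 for Tnfaip3. The medians of genes at the same levels were 0.12, 0.09, 0.07, 0.09 and 0.09, and between 95.7% and 99.7% of those genes varied less. In contrast, the SD of Il1rn was 0.03 and that of Il18 was 0.04, and 12.1% and 26.0% of genes at their levels varied less. In CD44-/- AMs the SD of Nfkbia was 0.06 and that of Tnfaip3 was 0.07, near the medians of 0.06 and 0.08 at their levels, while Il1a (0.32) and Il1b (0.31) still varied more than 98.8% of genes at theirs. The SD of Tnf in CD44-/- AMs was 0.25, against a median of 0.10 at its level, where 93.6% of genes varied less, and that of Nlrp3 was 0.20 against a median of 0.07. A difference in spread between genotypes was not tested, and with 3 libraries each an SD is imprecise.

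**Figure D3:**
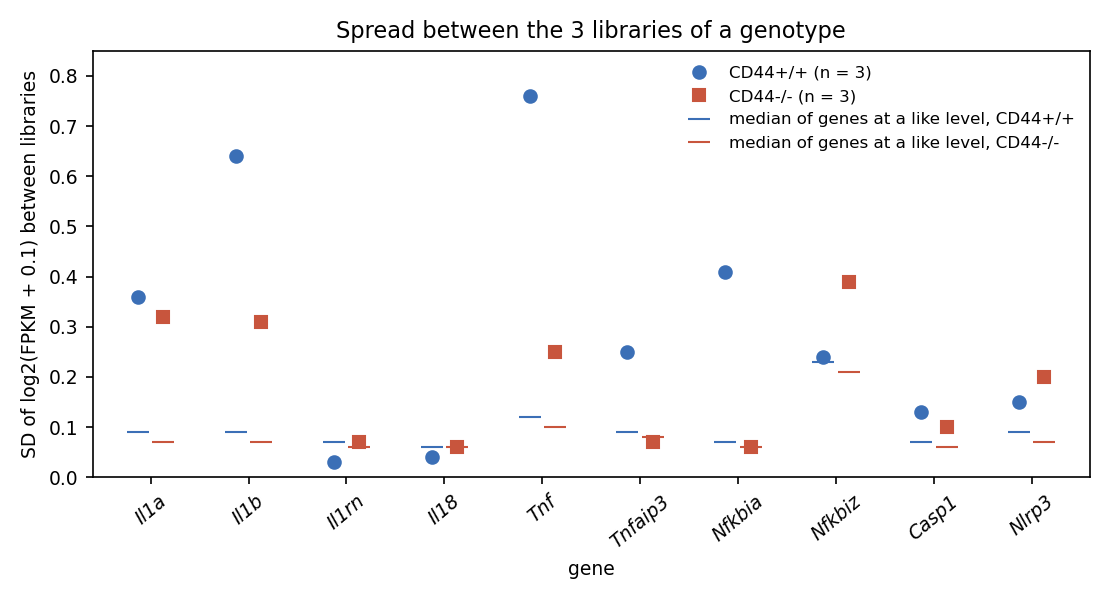
SD of log2(FPKM + 0.1) between the 3 libraries of a genotype (vertical axis) for each of the 10 genes, with short lines for the median SD of genes within 2-fold of the same level. CD44+/+ AMs stand at 0.76 for Tnf and 0.64 for Il1b, and both genotypes stand near the lines for Il18 and Il1rn.

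The low level of CD44+/+ replicate 1 was shared by other genes that NF-kB induces. Of 25 textbook NF-kB target genes listed, 14 were tested, and this library was the lowest of its genotype for 11 of 14, or 78.6%, where it was the lowest for 20.2% of all genes, replicate 2 for 31.7% and replicate 3 for 48.1%. The same was true of 5 of the 10 genes. In other lists too this share could exceed that of all genes, with 57.1% of tested neutrophil markers, 42.9% of AM markers and 41.2% of TNF receptor genes. It was 38.9% for the further inhibitors and 18.8% for IL-1 receptor genes. Among the targets chosen after their values were seen, the neutrophil chemokine gene Cxcl2 had 1.09, 5.27 and 6.85 FPKM in CD44+/+ and 2.68, 2.99 and 3.60 FPKM in CD44-/- AMs. Ccl3, the gene of the chemokine MIP-1 alpha, had 3.92, 15.0 and 10.9 against 5.36, 6.51 and 7.59 FPKM. Nfkbie, which encodes IkB epsilon and was also chosen after its values were seen, had 6.78, 13.9 and 12.1 against 8.89, 8.83 and 8.06 FPKM. In each of these the CD44-/- libraries lay between CD44+/+ replicate 1 and the other CD44+/+ libraries, the order seen for Nfkbia and Tnfaip3. Over the whole target list 6 of 14 had this order, as did 2 of the 10 genes and 1.4% of all genes, while the other targets did not.

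Without CD44+/+ replicate 1, the targets had a median log2 fold change of -0.31 (all genes 0.04), with 6 lower and 2 higher at an unadjusted p under 0.05 and 0 at an adjusted p under 0.05. With any other library left out, 1 or 2 of the targets had an unadjusted p under 0.05. Of the 10 genes, 4 had an unadjusted p under 0.05 without CD44+/+ replicate 1, all of them lower in CD44-/- AMs (Il1a, Il1b, Tnf and Nfkbia), where 12.5% of all genes passed and 3.73% passed as lower, and 0 to 2 of the 10 did with any other library left out. CD44+/+ replicate 1 was singled out as the lowest of its genotype for these 4 genes and 11 of the targets, so leaving it out had to raise their CD44+/+ means, and these counts show the weight of 1 library and are no test of genotype. Of the 7 tested neutrophil markers, 3 had an unadjusted p under 0.05 with all 6 libraries (1 lower in CD44-/- AMs and 2 higher), 5 did when the replicate number was a block, and 7 did without CD44+/+ replicate 1 (4 lower and 3 higher). Over all genes these shares were 7.69%, 9.71% and 12.5%. CD44+/+ replicate 1 was also the lowest of its genotype in the summed level of neutrophil markers. By gene it was the lowest for 4 of the 7 tested, or 57.1%, where it was the lowest for 20.2% of all genes. For Cxcr2 and Mmp8 it was the highest of its genotype. Of 13 such markers, 7 were tested, 4 were listed at 0 in all libraries, and the summed level was 91.4 FPKM in CD44+/+ replicate 1, 190 and 126 FPKM in the other CD44+/+ libraries and 98.3 to 114 FPKM in CD44-/- AMs. S100a9, a neutrophil alarmin chosen after its values were seen, had 0.493, 18.9 and 15.8 FPKM in CD44+/+ AMs and 1.80, 4.20 and 2.31 FPKM in CD44-/- AMs, with an adjusted p of 0.944. The adjusted p was 0.0209 without CD44+/+ replicate 1, its lowest library, which is no test of genotype either. S100a8, its partner, had 17.2, 45.0 and 35.1 against 26.5, 28.6 and 30.2 FPKM, while Csf3r, the receptor for the neutrophil growth factor G-CSF, had 11.8, 11.9 and 9.32 against 13.0, 15.4 and 13.0 FPKM. The part of neutrophil RNA in the values of the 10 genes was not tested.

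**Figure D4:**
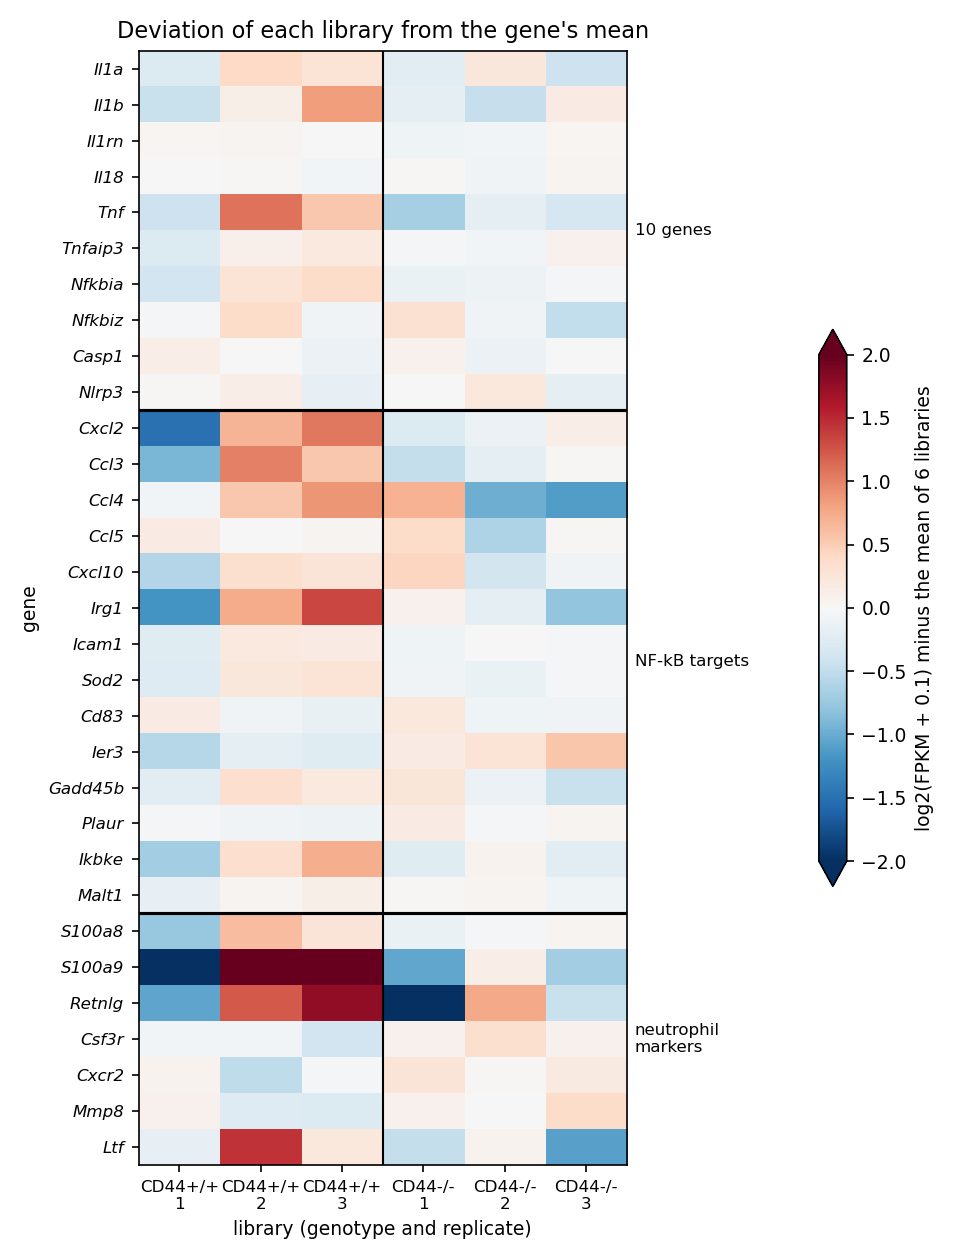
Deviation of each library (columns) from the mean of the 6 libraries, in log2(FPKM + 0.1), for the 10 genes, the tested NF-kB targets and the tested neutrophil markers (rows), with blue for lower and red for higher and colors capped at 2. CD44+/+ replicate 1 is blue for Tnf (-0.42), Il1b (-0.44) and Nfkbia (-0.38) and for 12 of 14 NF-kB targets.

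Ratios within a library do not depend on how the library was scaled, so the cytokines were also set against their inhibitors. Tnf amounted to 10.0%, 18.2% and 11.8% of the FPKM of Nfkbia in CD44+/+ AMs and to 7.07%, 9.74% and 8.29% in CD44-/- AMs. This ratio did not overlap between genotypes, and CD44+/+ replicate 1 lay just above the highest CD44-/- library. The means were 13.4 ± 4.32% and 8.37 ± 1.34% (SD, n = 3), and the log2 difference was -0.63 ± 0.28 (SE) with an exact permutation p of 0.1, two-sided. With 3 libraries against 3 this is the smallest p that the exact test can give, so it could not pass 0.05. Within every pair of same-numbered libraries the ratio was lower in CD44-/- AMs. The exact permutation of signs over these pairs gave a two-sided p of 0.25, and it could not pass 0.05 either. Leaving out any 1 library gave differences from -0.81 to -0.39.

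Il1b amounted to 12.0%, 17.5% and 29.9% of the FPKM of its antagonist Il1rn in CD44+/+ AMs and to 15.7%, 12.6% and 18.3% in CD44-/- AMs. The genotypes overlapped, and the lowest and highest values were both CD44+/+ libraries. The log2 difference was -0.26 ± 0.41 (SE) with an exact permutation p of 0.7, two-sided, and it was 0.08 without CD44+/+ replicate 3.

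**Figure D5:**
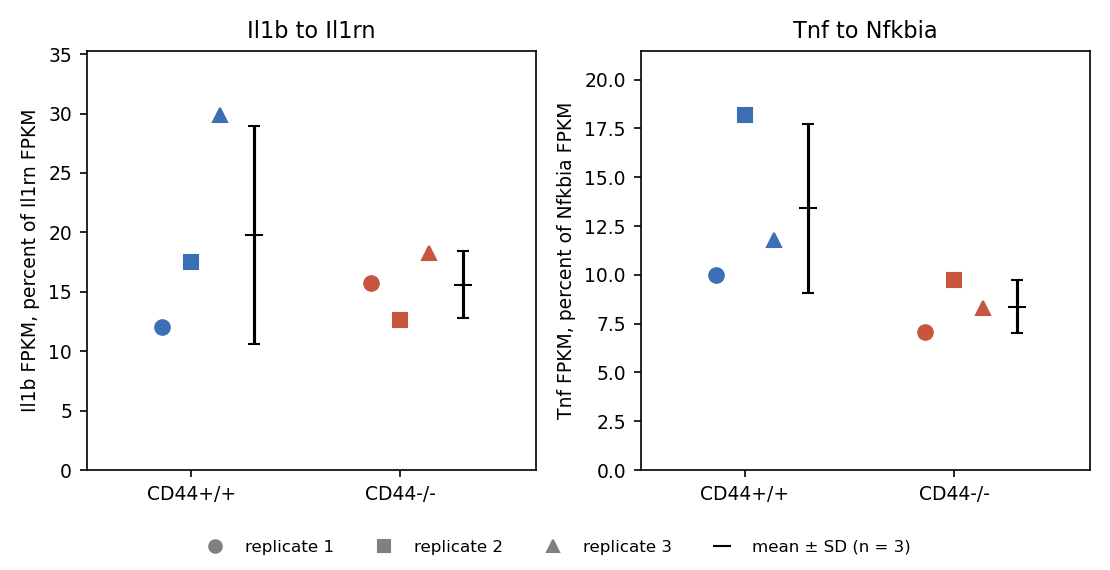
Il1b as a percent of Il1rn and Tnf as a percent of Nfkbia (vertical axes, FPKM over FPKM, starting at 0) in each library, with bars for the mean ± SD (n = 3). The Tnf ratio is 10.0% to 18.2% in CD44+/+ and 7.07% to 9.74% in CD44-/- AMs, and the Il1b ratio overlaps.

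Among the genes for receptors and signaling proteins around the 10 genes, none passed the adjusted threshold with limma on all 6 libraries. The counts at an unadjusted p under 0.05 that follow are read against 7.69% of all genes, and those at an adjusted p against 0.111%. Of 16 tested genes for receptors and proximal signaling of IL-1 and IL-18, 0 had an adjusted p under 0.05 and 0 an unadjusted p under 0.05 with limma, and their median log2 fold change was -0.04. With the replicate block 1 (Tab3) had an unadjusted p under 0.05, where 9.71% of all genes did. The adaptor Myd88, the most abundant of them, had 94.3 ± 5.26 FPKM in CD44+/+ and 89.0 ± 1.06 FPKM in CD44-/- AMs, and the kinase gene Irak1 had 32.8 ± 1.93 and 33.0 ± 0.264 FPKM (SD, n = 3). Of 17 tested genes for TNF receptors, TNF release and their signaling, 0 had an adjusted p under 0.05 and 1 an unadjusted p under 0.05, and their median log2 fold change was -0.01. The gene with an unadjusted p under 0.05 was Tradd, the adaptor of TNF receptor 1, with 35.8 ± 0.503 FPKM in CD44+/+ and 32.8 ± 1.70 FPKM in CD44-/- AMs and an adjusted p of 0.647. The receptors themselves had 150 ± 12.9 and 150 ± 5.20 FPKM for Tnfrsf1b and 102 ± 1.0 and 105 ± 1.15 FPKM for Tnfrsf1a, so that RNA of the receptors was far more abundant than RNA of Tnf.

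The 10 tested genes for the NF-kB subunits, for the IKK kinase that releases NF-kB and for the upstream kinases Map3k8 and Map3k14 had a median log2 fold change of -0.06. None of them had an adjusted or an unadjusted p under 0.05 with limma. With the replicate block 1 (Map3k8) had an unadjusted p under 0.05, against 9.71% of all genes. Nfkb1, the gene of the p50 subunit, had 52.3 ± 1.46 and 50.0 ± 2.48 FPKM, and the kinase gene Ikbkb had 40.7 ± 1.93 and 39.8 ± 0.959 FPKM in CD44+/+ and CD44-/- AMs (SD, n = 3). Among 18 further inhibitors of NF-kB or of cytokine RNA, 0 had an adjusted p under 0.05 and 1 an unadjusted p under 0.05, and the median log2 fold change was 0.01. Zfp36l2, an RNA-binding relative of tristetraprolin, had 208 ± 34.0 and 216 ± 8.50 FPKM, and Tax1bp1, an adaptor of A20, had 84.0 ± 2.69 and 84.5 ± 2.90 FPKM.

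Dusp1 was the inhibitor with an unadjusted p under 0.05. It encodes a phosphatase that turns off p38 and JNK signaling, and it had 23.4, 13.2 and 29.8 FPKM in CD44+/+ AMs and 36.5, 31.2 and 61.1 FPKM in CD44-/- AMs. All CD44-/- libraries lay above all CD44+/+ libraries. The log2 fold change was 0.97 ± 0.31 (SE) and the adjusted p was 0.476, or 0.0832 with the replicate block. The log2 fold change was 0.64 without CD44+/+ replicate 2 and 0.68 without CD44-/- replicate 3. The unadjusted p of 0.014 became 0.0524 without CD44-/- replicate 3, 0.0762 with no filter on low values and 0.083 with robust eBayes. Dusp1 is also an immediate early gene. A list without Dusp1 held 13 immediate early and heat shock genes that the handling of cells can raise. Of these, 0 had an adjusted p under 0.05 and 3 had an unadjusted p under 0.05, against 7.69% of all genes. With the replicate block these counts were 0 and 7 of 13, against 9.71% of all genes at the unadjusted threshold. Jun had 12.1 ± 1.11 and 17.1 ± 5.33 FPKM, Fosb had 1.64 ± 0.223 and 2.21 ± 0.370 FPKM, and Atf3, a repressor of cytokine genes, had 19.0 ± 3.45 and 13.9 ± 0.252 FPKM in CD44+/+ and CD44-/- AMs (SD, n = 3). With all 6 libraries the log2 fold change of Atf3 was -0.43 with an adjusted p of 0.369 by limma. Without CD44+/+ replicate 1, the lowest CD44+/+ library for Atf3, these were -0.57 and 0.0485, which is no test of genotype. The part of cell handling in these values was not tested. The 2 most abundant of the list, Fos and Junb, had adjusted p of 0.925 and 0.944, or 0.690 and 0.289 with the replicate block.

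Of 14 further inflammasome genes tested, 0 had an adjusted p under 0.05 and 1 an unadjusted p under 0.05, with a median log2 fold change of -0.03. Naip2, a sensor of bacterial secretion systems, had 54.9, 54.3 and 54.8 FPKM in CD44+/+ AMs and 50.1, 49.7 and 49.8 FPKM in CD44-/- AMs. The difference was small but the groups did not overlap, with a log2 fold change of -0.13 ± 0.04 (SE) and an adjusted p of 0.492. The adjusted p was 0.0344 when no filter on low values was used. Naip2 has close paralogs, and how reads shared with them were assigned was not tested. Txnip, a thioredoxin-binding protein that can activate NLRP3, had 532 ± 82.9 and 539 ± 76.4 FPKM (SD, n = 3).

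With all libraries, 2 of the 14 NF-kB targets had an unadjusted p under 0.05 (7.69% of all genes) and 0 an adjusted p under 0.05 (0.111% of all genes), and both had higher means in CD44-/- AMs. Ier3, an early response gene that limits cell death, had 1.60, 2.1 and 2.04 FPKM in CD44+/+ AMs and 2.71, 2.97 and 3.63 FPKM in CD44-/- AMs, with a log2 fold change of 0.67 ± 0.16 (SE) and an adjusted p of 0.272. Plaur, the urokinase receptor, had 225 ± 5.0 and 249 ± 16.7 FPKM (SD, n = 3) with an adjusted p of 0.593. The median log2 fold change of the targets was -0.15. Icam1, an adhesion molecule, followed the order of Nfkbia with 53.7, 72.3 and 70.8 FPKM in CD44+/+ and 59.3, 63.6 and 62.0 FPKM in CD44-/- AMs. At the low end of the target list, Il12a, Il23a and Nos2 were listed at 0 in all libraries and Il6 did not exceed 0.121 FPKM, while Il12b had 0.165 to 0.772 FPKM and Cxcl10 had 1.19 to 2.51 FPKM. These genes were named after their values were seen.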

How the data were processed

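RNA of AMs was measured by stranded, paired-end RNAseq in 6 libraries, with genotype and replicate read from the sample titles and labels. STAR was the authors' aligner, to mm10, and Cufflinks gave the deposited FPKM of 24341 genes, which are scaled for depth and transcript length. Gene identifiers carry the FPKM values, while a second name column follows another order (0 rows match). The authors' Cuffdiff fold changes, p-values and q-values in the same table were not used. A gene with a missing value (1) was left out. Of the listed symbols 6 had no row of their own and were not used, of which 2 (Acod1 and Siglec5) are RefSeq synonyms of the listed genes Irg1 and Siglecf and are not counted again, and Gsdme has a row under its older name Dfna5 that was not used. Read numbers were not used, so absolute depth and counting error are unknown. Sums of FPKM were 487901 to 504182, and median-ratio factors 0.9671 to 1.034.

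The 10800 genes averaging 0.5 FPKM or more were compared on log2(FPKM + 0.1) with limma 3.58.1 in R 4.3.3. The variance followed an intensity trend, p-values were two-sided, and adjusted p-values are those of Benjamini and Hochberg across the 10800 genes. A fold change is on this scale and understates low genes. The 2 ratios were compared by exact permutation over 20 splits, and as an alternative by exact permutation of signs over same-numbered pairs. The limma fit was tested on simulated data before use.

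Same-numbered libraries deviated together, with correlations of 0.212, 0.132 and 0.211 for replicates 1, 2 and 3, so a fit with the replicate number as a block was added. The labels do not say that they were collected together, nor which pool held how many mice, and the p-values measure the spread between pools. The 15 alternatives are given in the closing section. The members and lists were chosen with earlier results of these data known, and counts under each alternative for the lists were added after seeing the data. Named genes were the members, list genes with an unadjusted p under 0.05 or the 2 largest means of their list, and the 5 genes most like Il1b or Tnf, and others are said to be chosen after their values were seen. Gene positions and 3′ UTRs came from GENCODE vM21 (GRCm38), and promoters from RefSeq GRCm38.p6, where 9 of 10 members matched 13 windows.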

Additional observations from a re-analysis of the deposited data

How the results depend on the processing

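Of all 10800 genes, 12 had an adjusted p under 0.05, and 6 to 36 did when 1 library was left out, with 36 without CD44+/+ replicate 1, 7 without CD44+/+ replicate 2, 22 without CD44-/- replicate 1 and 6 without CD44-/- replicate 2. With the replicate block 9 did, and the block changed no call among the 10 genes, while the count of immediate early and heat shock genes with an unadjusted p under 0.05 moved from 3 to 7. Of the 10 genes, 1 had an unadjusted p under 0.05, but 0 did with no filter on low values, with median-ratio scaling, with eBayes without a trend and with robust eBayes, and 0 to 4 did with 1 library left out (4 without CD44+/+ replicate 1, 2 without CD44-/- replicate 2). Their median log2 fold change stayed between -0.19 and -0.04 with 1 library left out. The adjusted p of Tnf ranged from 0.068 to 1.0 over the 15 alternatives. Directions turned for some of the 10 genes. With 1 library left out, log2 fold changes ranged from -0.63 to 0.0034 for Il1b, -0.01 to 0.05 for Il18, -0.15 to 0.08 for Tnfaip3, -0.37 to 0.03 for Nfkbiz, -0.08 to 0.05 for Casp1 and -0.10 to 0.10 for Nlrp3, and the log2 difference of the Il1b to Il1rn ratio from -0.57 to 0.08. Median-ratio scaling gave -0.01 for Il18 and -0.01 for Nlrp3, and quantile normalization -0.0037 for Nlrp3. The causes of these changes were not tested. Of the lists, the count of NF-kB targets with an unadjusted p under 0.05 moved from 2 to 8 without CD44+/+ replicate 1, that of the further inhibitors from 1 to 4 (0 with robust eBayes and without CD44-/- replicate 3), that of inflammasome genes from 1 to 3, those of IL-1 receptor and NF-kB subunit genes from 0 to 1, and that of TNF receptor genes from 1 to 0. Over all alternatives the IL-1 receptor count was 0 to 2 (2 with eBayes without a trend) and the TNF receptor count 0 to 2. Without CD44+/+ replicate 1 Atf3 passed the adjusted threshold (adjusted p 0.0485, against 0.369 with all libraries). That library was its lowest of the CD44+/+ libraries, so this is no test of genotype. The 3 pools of each genotype limit the precision of every value, and genes as low as Nfkbiz have wide intervals.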

Other observations

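The genes whose levels followed those of Il1b and Tnf most closely over the 6 libraries are given as a description, ranked among the 7887 genes averaging at least 5 FPKM. They share the libraries and their genotypes with Il1b and Tnf, and no test was made. For Il1b the 5 closest genes by Pearson r of log2(FPKM + 0.1) were Esd (0.982), Osm (0.978), Cotl1 (0.977), St6galnac4 (0.973) and Dph1 (0.972). Osm encodes oncostatin M, a cytokine of the IL-6 family, and had 8.61, 10.2 and 12.9 FPKM in CD44+/+ AMs and 9.68, 7.98 and 10.2 FPKM in CD44-/- AMs. For Tnf they were Ext1 (0.995), 1700026L06Rik (0.992), Tmem38b (0.966), G3bp1 (0.960) and Lair1 (0.959). Ext1, a polymerase of heparan sulfate chains, had 12.2, 15.2 and 14.2 FPKM against 11.6, 12.7 and 12.1 FPKM, and Lair1, an inhibitory receptor for collagen, had 32.7, 37.3 and 35.2 against 30.3, 32.3 and 33.1 FPKM.

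Markers of other cells that BAL can carry also differed between libraries, and their part in the values of the 10 genes was not tested. Summed levels in CD44+/+ and CD44-/- AMs were 435 to 580 and 354 to 429 FPKM for monocyte and interstitial macrophage markers (7 of 11 tested), 16.8 to 28.5 and 24.2 to 38.4 FPKM for dendritic cell markers (4 of 8 tested), 878 to 1340 and 775 to 1100 FPKM for airway and alveolar epithelial markers (10 of 11 tested), and 2.12 to 17.3 and 2.89 to 56.5 FPKM for erythroid markers (3 of 6 tested). The monocyte sums were made up largely of Fn1 (221 to 428 FPKM) and Csf1r (117 to 140 FPKM), while 5 of the 7 tested monocyte markers had higher means in CD44-/- AMs and their median log2 fold change was 0.18. Of the monocyte markers, Fn1 had 368 ± 61.6 FPKM in CD44+/+ and 267 ± 39.8 FPKM in CD44-/- AMs (SD, n = 3), with an adjusted p of 0.427 by limma. The complement genes C1qa and C1qc of interstitial macrophages had higher means in CD44-/- AMs, with log2 fold changes of 0.89 and 0.83 and adjusted p of 0.294 and 0.471. Of the epithelial markers, Sftpb had 1.62 ± 0.451 and 4.22 ± 2.14 FPKM with an adjusted p of 0.369, and Scgb1a1, the largest of the list, had 440 ± 116 and 347 ± 97.0 FPKM. Ltf, the largest of the neutrophil list, had 28.7, 87.3 and 37.2 FPKM in CD44+/+ AMs and 23.1, 33.8 and 15.2 FPKM in CD44-/- AMs, with an adjusted p of 0.619. Bronchial lining cells also make it. Mmp8, a collagenase of the same list, had 24.6 ± 3.78 and 30.3 ± 3.95 FPKM with an adjusted p of 0.598. Csf3r, of that list too, had a log2 fold change of 0.33 with an adjusted p of 0.499.

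Other marker genes with an unadjusted p under 0.05 by limma, none with an adjusted p under 0.05, had these levels in CD44+/+ and CD44-/- AMs (SD, n = 3). The AM genes Krt79 and Mertk had 283 ± 27.2 and 217 ± 12.4 FPKM and 122 ± 4.93 and 135 ± 7.57 FPKM. The dendritic cell chemokine Ccl22 had 14.7 ± 2.99 and 19.7 ± 3.12 FPKM. The epithelial genes Epcam and Sftpc had 59.1 ± 15.8 and 84.5 ± 14.4 FPKM and 10.7 ± 4.41 and 36.5 ± 33.1 FPKM. Of the most abundant markers of each list, log2 fold changes were -0.03 for Chil3, 0.08 for Ear1, -0.11 for Csf1r, 0.41 for Ccr7, -0.34 for Bpifa1, 0.34 for Hba-a2 and 0.58 for Hbb-bt, with adjusted p from 0.808 for Csf1r to 0.989 for Chil3.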
